A study of Mus musculus with 12 samples.

Results

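Testes of mice without Sohlh2 were compared directly with testes of mice without Sohlh1. Of the 12 arrays of the study, 8 entered this comparison: the 4 whose titles name a Sohlh2 knockout (numbered 1, 3-1, 4 and 5) and the 4 whose titles name a Sohlh1 knockout (numbered 2, 3, 4 and 5). The other 4 arrays were wild type and are used as the reference level. The knockouts were homozygous, and every group was on a hybrid background, which the labels spell C57BL/6, 129S5, SvEvBrd, and was taken at postnatal day 7 with no treatment named. Each array held RNA of whole testis pooled from 3 testes of 3 animals. Groups, numbers and labels are those of the sample titles throughout. The labels give neither the exons removed from either gene nor whether the animals of the knockout groups were littermates. In whole testis, fewer cells of a type and less RNA per cell cannot be told apart.

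SOHLH1 and SOHLH2 are transcription factors of the basic helix-loop-helix class, found in the germ cells of testis and ovary. In the testis they are known for the step from undifferentiated to differentiating spermatogonia, and each is reported to bind DNA as a dimer, alone or with the other. Proteins of this class bind the short sequence CANNTG, called the E-box. At the age studied the tubules hold Sertoli cells and spermatogonia with the first cells entering meiosis, and Leydig and peritubular cells lie between them. The comparison asks whether losing one factor leaves a testis whose transcripts differ from those after losing the other.

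The targeted genes come first, since the rule of the comparison turns on them. The RefSeq promoter windows of both genes (GRCm38.p6, 250 bases before to 50 after the start, read 5′ to 3′ along the gene) are shown because E-boxes are the class of site these factors bind. CANNTG matches are in capitals. That pattern, though not each match, reads the same on both strands. The window of Sohlh1 lies at chr2:25847199-25847498 on the minus strand and holds 5 matches, of which 3 are CACGTG. The window of Sohlh2 lies at chr3:55181794-55182093 on the plus strand and holds 1.
Sohlh1: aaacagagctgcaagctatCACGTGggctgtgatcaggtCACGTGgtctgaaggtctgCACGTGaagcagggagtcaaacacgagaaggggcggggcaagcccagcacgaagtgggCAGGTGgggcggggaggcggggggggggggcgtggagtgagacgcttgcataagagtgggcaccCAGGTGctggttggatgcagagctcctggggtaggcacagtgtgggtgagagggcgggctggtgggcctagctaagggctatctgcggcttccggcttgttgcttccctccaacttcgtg
Sohlh2: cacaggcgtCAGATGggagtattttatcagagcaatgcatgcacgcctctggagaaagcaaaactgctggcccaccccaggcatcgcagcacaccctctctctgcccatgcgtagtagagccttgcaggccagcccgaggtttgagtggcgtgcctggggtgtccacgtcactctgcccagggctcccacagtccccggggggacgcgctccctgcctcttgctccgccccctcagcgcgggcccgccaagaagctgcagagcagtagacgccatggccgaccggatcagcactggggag
Over 32851 windows of the same length, 72.3% held a CANNTG and 7.15% a CACGTG. A match describes these letters and is not a binding site.

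Sohlh1 (probe set 1460015_at) had signals of 1125, 1138, 1200.1 and 1233 on the wild-type arrays 3, 4, 5 and 6. Those labelled Sohlh1 knockout 2, 3, 4 and 5 had 104, 61.0, 50.2 and 595, and those labelled Sohlh2 knockout 1, 3-1, 4 and 5 had 126, 465, 494 and 563. Sohlh2 (probe set 1429817_at) had 885, 1104, 1012 and 1200.3 in wild type, 1556, 1783, 1605 and 94.4 under the label Sohlh1 knockout, and 1847, 157, 93.6 and 73.2 under the label Sohlh2 knockout, in the same order. The array labelled Sohlh1 knockout 5 thus had a low Sohlh2 signal and a Sohlh1 signal of the size seen on the Sohlh2 knockout arrays, and the array labelled Sohlh2 knockout 1 had a low Sohlh1 signal and a high Sohlh2 signal. On these 2 arrays the targeted genes went against the labels; the cause was not tested. Neither array was moved to another group. Each result is given with all 8 knockout arrays as labelled and again with the 6 that remain without these 2.

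**Figure D1:**
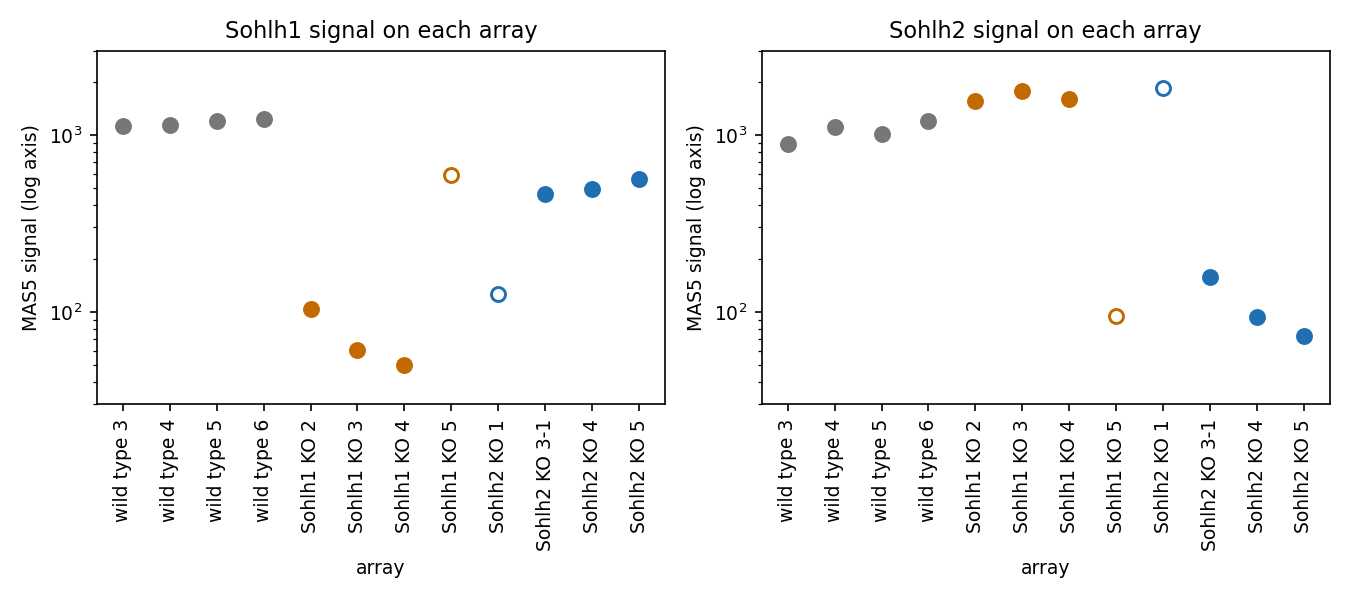
MAS5 signal of Sohlh1 (left) and Sohlh2 (right) on each of the 12 arrays, on a log axis, with wild type in grey, arrays labelled Sohlh1 knockout in orange and arrays labelled Sohlh2 knockout in blue. The open circles are the arrays labelled Sohlh1 knockout 5 and Sohlh2 knockout 1, each of which lies apart from the other 3 arrays of its label in both panels.

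With 8 arrays the log2 difference, Sohlh2 knockout minus Sohlh1 knockout, was 1.46 for Sohlh1 (SE 0.58, 95% interval 0.22 to 2.70, limma adjusted p = 1.00) and -1.84 for Sohlh2 (SE 0.92, 95% interval -3.82 to 0.13, adjusted p = 1.00). Neither targeted gene passed the threshold, an adjusted p under 0.05. With 6 arrays the differences were 2.65 (SE 0.19) and -3.82 (SE 0.20). These 2 genes chose which arrays were left out, so their values with 6 arrays are a description with no test. All log2 values here are on the scale log2(signal + 14.2), which draws differences of dim probe sets towards 0.

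The array medians lay between 76.6 and 90.8. The 3′ to 5′ ratio of the Gapdh control was 0.744 to 0.818 on 10 arrays, 1.17 on the array labelled Sohlh1 knockout 2 and 1.63 on that labelled Sohlh2 knockout 1. A high ratio is read as a sign of shortened RNA. Defining markers of the testis were present in all groups: the germ cell gene Dazl had signals from 10191 to 13287, and the Sertoli cell gene Sox9 from 885 to 2382. The lowest Sox9 signals, 885 and 1275, were those of the 2 arrays of high ratio.

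With all 8 arrays, 0 of 24906 probe sets (0.00%) differed between the knockouts by limma, and 643 (2.58%) had an unadjusted p under 0.05. The smallest adjusted p was 1.00. The median absolute difference was 0.104 on the log2 scale. For 21334 probe sets (85.7%) the 95% interval of the difference lay within 2-fold either way, and 99 (0.397%) had an estimate past 2-fold. On 476 probe sets (1.91%) the 4 arrays of one knockout lay wholly above the 4 of the other, 238 in each direction (0.956% each). An adjusted p above the threshold does not show that the knockouts have the same level. The intervals give the differences that 4 arrays a group leave possible, with a median width of 0.380 on either side of the estimate.

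None of the following genes passed in the 8 arrays. They had the smallest p in each direction and are given for their values (adjusted p = 1.00 each). Dchs1, a large protocadherin that organises tissue polarity, had 154, 178, 152 and 158 on arrays labelled Sohlh1 knockout and 289.6, 266, 246 and 232 on those labelled Sohlh2 knockout, a difference of 0.64 (SE 0.14, 95% interval 0.35 to 0.93). The wild-type signals, 206, 197, 254 and 219.6, overlapped the second group and lay above the first. Plekhn1, a protein with a pleckstrin homology domain, had means of 103 ± 3.88 against 169 ± 11.7 (SD, n = 4 each; difference 0.64, SE 0.15). Purb, which binds purine-rich single-stranded DNA, had 589, 639, 713 and 602 against 1049, 729, 1009 and 974 (difference 0.54, SE 0.13). This probe set of Purb is not the brightest of that gene. The groups of these 3 genes did not overlap, so the 2 arrays with contrary targeted genes lay with their labels. The genes were picked by p under those labels, so where these 2 arrays lay is no check of the labels. Igfbpl1, which resembles the binding proteins of insulin-like growth factors, had a difference of 1.50 (95% interval 0.73 to 2.27) at mean signals of 26.9 ± 19.5 and 96.2 ± 34.0 (SD, n = 4 each).

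In the other direction the differences were -1.51 for Shisal2b, -1.42 for Slc25a44 (a mitochondrial carrier), -1.35 for the transcriptional coregulator Tcf20, -1.05 for Rasal1 (which switches off RAS) and -0.60 for Tmem255a. All but Tmem255a were dim, with knockout group means from 19.4 to 84.4. Tmem255a had 672, 773, 802 and 591 on arrays labelled Sohlh1 knockout and 501, 355, 527 and 483 on those labelled Sohlh2 knockout, with 555, 538, 382 and 444 in wild type. The knockout groups did not overlap on any of these 5. The probe sets of Slc25a44, Tcf20 and Tmem255a given here are not the brightest of those genes. With 6 arrays Shisal2b had -1.72 and Tcf20 -1.50, and none of the 5 passed.

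Without the arrays labelled Sohlh1 knockout 5 and Sohlh2 knockout 1, 7 of 24906 probe sets (0.0281%) differed, 4 higher (0.0161%) and 3 lower (0.0120%) on the arrays labelled Sohlh2 knockout. Of these, 2 were Sohlh1 and Sohlh2 themselves. The other 5 were Eny2, Akirin1 and Lsm12, which were higher, and Cap1 and Gnb1, which were lower. An unadjusted p under 0.05 was met by 1686 probe sets (6.77%), and 3219 (12.9%) had groups that did not overlap, 6.98% with the Sohlh2 knockout higher and 5.95% lower. With only the brightest probe set of each gene, 4 differed, Sohlh1, Sohlh2, Cap1 and Zfp386, since the probe sets of Eny2, Akirin1, Lsm12 and Gnb1 that passed are not the brightest of those genes. With eBayes run without the trend, 3 differed, Sohlh1, Sohlh2 and Eny2. With the Gapdh 3′ to 5′ ratio as a covariate, Eny2 and Gnb1 passed and Akirin1, Lsm12 and the same probe set of Cap1 did not. In that fit Efhd2, C1qtnf12 and another probe set of Cap1 passed, which they did not in the main fit. Past 2-fold were 279 (1.12%), and the 95% interval lay within 2-fold for 20301 (81.5%).

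Eny2 encodes a small shared subunit of the SAGA complex, which removes ubiquitin from histones, and of the TREX-2 complex of mRNA export. Its probe set 1429410_at had 278, 292 and 323 on arrays labelled Sohlh1 knockout 2, 3 and 4 and 722, 689 and 628 on those labelled Sohlh2 knockout 3-1, 4 and 5, with 434, 400.4, 333 and 394 in wild type. The 3 groups did not overlap, and wild type lay between the knockouts. The means were 297 ± 23.2 and 679.8 ± 47.8 (SD, n = 3 each), a log2 difference of 1.16 (SE 0.14, limma adjusted p = 0.0052). On the left-out arrays labelled Sohlh1 knockout 5 and Sohlh2 knockout 1 the signals were 625 and 172. With 8 arrays the difference was 0.42 (95% interval -0.37 to 1.21). Of 6 tested probe sets of Eny2 this was the 1 that passed. The other 5 had differences from -0.22 to 0.28, so the gene's probe sets disagreed. The call held without each of the 10 arrays in turn.

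Akirin1 encodes a small nuclear protein of the akirin family. Its probe set 1416911_a_at had 886, 1012 and 939 on 3 arrays labelled Sohlh1 knockout and 1539, 1849 and 2203 on 3 labelled Sohlh2 knockout, with 881, 946, 837 and 788 in wild type. The Sohlh1 knockout signals overlapped wild type and the Sohlh2 knockout signals lay above both (difference 0.96, SE 0.13, adjusted p = 0.0208). The left-out arrays had 1837 and 865, and with 8 arrays the difference was 0.45. A second probe set of Akirin1 had -0.12. The suffix _a_at marks a probe set that can match several transcripts of a gene. The call was lost without the array labelled Sohlh1 knockout 4 or that labelled Sohlh2 knockout 4 or 5.

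Lsm12, an RNA-binding protein of the Sm-like family, had 208, 204 and 292 on 3 arrays labelled Sohlh1 knockout and 709, 539.7 and 827 on 3 labelled Sohlh2 knockout at probe set 1429509_at. Wild type had 506, 320.1, 534 and 562, above the first group and overlapping the second. The difference was 1.50 (SE 0.22, adjusted p = 0.0265), and a second probe set had 0.73 without passing (adjusted p = 0.536). The left-out arrays had 608 and 671, so that the array labelled Sohlh2 knockout 1 lay among the others of its label and the array labelled Sohlh1 knockout 5 did not. With 8 arrays Lsm12 was among the 5 of smallest p on the higher side, at 1.16 (95% interval 0.55 to 1.77), and did not pass. With 6 arrays it lost the call without wild type 3, the arrays labelled Sohlh1 knockout 2 or 3, or those labelled Sohlh2 knockout 3-1 or 5.

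Cap1, the cyclase-associated protein that speeds the turnover of actin filaments, was among the bright genes. Its probe set 1417461_at had 6508, 5999.6 and 5428 on 3 arrays labelled Sohlh1 knockout and 2606, 3142 and 2353 on 3 labelled Sohlh2 knockout, with 6705, 5696, 4083 and 4265 in wild type. The means were 5978 ± 540.1 and 2700.2 ± 403 (SD, n = 3 each), a difference of -1.15 (SE 0.17, adjusted p = 0.0265). The Sohlh2 knockout signals lay below both other groups. The left-out arrays had 2072 and 5038, and with 8 arrays the difference was -0.54. A second probe set had -0.81 (adjusted p = 0.491). The call was lost without the array labelled Sohlh1 knockout 2, 3 or 4 or that labelled Sohlh2 knockout 3-1 or 5.

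Gnb1, a beta subunit of heterotrimeric G proteins, had 4822, 4869 and 6639.9 on 3 arrays labelled Sohlh1 knockout and 2418, 3151 and 2747 on 3 labelled Sohlh2 knockout at probe set 1454696_at, with 3661, 3649, 3754 and 4355 in wild type. Wild type lay between the knockouts with no overlap (difference -0.96, SE 0.13, adjusted p = 0.0208). The left-out arrays had 3472 and 6642, and the 8-array difference was -0.49. A second probe set, 1417432_a_at, had -0.064, so the probe sets of Gnb1 disagreed in size. The call was lost without the array labelled Sohlh1 knockout 4 or that labelled Sohlh2 knockout 3-1 or 5.

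**Figure D2:**
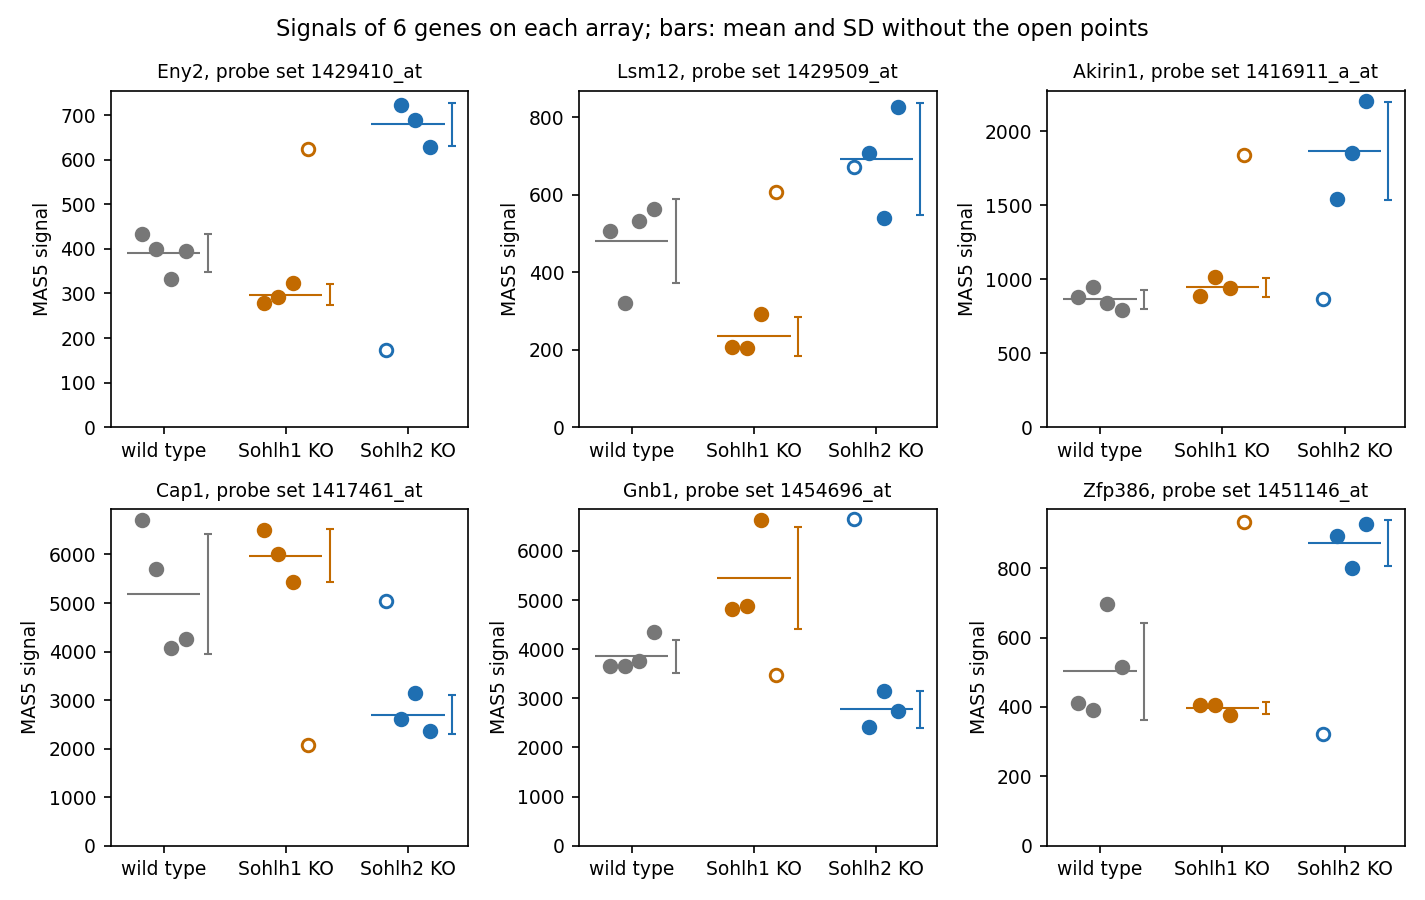
MAS5 signals of Eny2, Lsm12, Akirin1, Cap1, Gnb1 and Zfp386 on each array by labelled group, on linear axes from 0; the line is the mean and the bar 1 SD of the filled points, and open circles are the 2 left-out arrays. The filled points of the knockouts do not overlap in any panel, and the open orange point lies nearer the mean of the filled blue points than that of the filled orange points in each.

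The next genes by p did not pass with 6 arrays. Zfp386, a zinc finger protein, had 407, 405 and 376 against 894, 799.5 and 927 (difference 1.11, adjusted p = 0.072), and its second probe set had 1.04. Glo1, the glyoxalase that clears methylglyoxal, had 5378, 7127 and 6945 against 3859, 3462 and 3656 (difference -0.81, adjusted p = 0.184), and all 4 of its probe sets lay between -1.01 and -0.81 with groups apart. Lancl1, which binds glutathione, had -0.53 (adjusted p = 0.212) at one probe set and 0.33 at the other. For Zfp386 and Glo1 all probe sets thus had estimates of one sign, while for Eny2, Akirin1 and Lancl1 they did not. Those of Gnb1 shared a sign but not a size. On the higher side Ndufs5 and Tnrc6a came after the first 5, though with a smaller p than Glo1 and Lancl1 (limma adjusted p = 0.140 each). Tnrc6a had 1.59 at that probe set, and its other probe sets lay between -0.16 and 0.24.

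Set beside wild type in the fit of 10 arrays, the 5 genes passed in one knockout each. In that fit 843 probe sets (3.38%) changed in the Sohlh1 knockout and 443 (1.78%) in the Sohlh2 knockout, and 582 (2.34%) and 432 (1.73%) with all 12 arrays. The arrays labelled Sohlh1 and Sohlh2 knockout share the wild-type arrays as reference, so both values are given side by side and not compared further. The 5 genes were picked by their difference between the knockouts on these same arrays. Their values against wild type are thus a description and no separate support. Akirin1 had 0.13 in the Sohlh1 knockout (adjusted p = 0.593) and rose by 1.09 in the Sohlh2 knockout (adjusted p = 3.50e-04). Eny2 had -0.37 (adjusted p = 0.121) and rose by 0.78 (adjusted p = 0.00634). Cap1 had 0.23 (adjusted p = 0.447) and fell by 0.92 (adjusted p = 0.00894). Lsm12 fell by 0.98 in the Sohlh1 knockout (adjusted p = 0.0204) and had 0.52 in the Sohlh2 knockout (adjusted p = 0.271). Gnb1 rose by 0.48 in the Sohlh1 knockout (adjusted p = 0.0489) and had -0.48 in the Sohlh2 knockout (adjusted p = 0.0739). With all 12 arrays none of the 5 passed against wild type in either knockout. These values are of the probe sets that passed between the knockouts, and the other probe sets of Eny2, Akirin1, Gnb1 and Lsm12 did not pass against wild type. The brightest probe sets of Eny2 and Akirin1 had -0.032 (adjusted p = 0.944) and 0.12 (adjusted p = 0.630) in the Sohlh2 knockout, and that of Gnb1 had -0.16 (adjusted p = 0.329) in the Sohlh1 knockout. The second probe set of Cap1 fell by 0.86 in the Sohlh2 knockout (adjusted p = 0.0323).

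Where the left-out arrays lay was read gene by gene as a description. On all 5 of these genes the array labelled Sohlh1 knockout 5 was nearer to the mean of the 3 arrays labelled Sohlh2 knockout, and on 4 of 5 the array labelled Sohlh2 knockout 1 was nearer to the 3 labelled Sohlh1 knockout. Among the 47 probe sets other than Sohlh1 and Sohlh2 with an unadjusted p under 0.001, the counts were 40 (85.1%) and 35 (74.5%). Over all 24906 tested probe sets the shares were 52.6% and 62.1%. The array labelled Sohlh2 knockout 1 also had the highest 3′ to 5′ ratio, whose part in these counts was not tested.

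The promoter windows of 5 of the 7 genes that differed with 6 arrays were in the RefSeq table, and those of Akirin1, Cap1 and Gnb1 are shown in the same way to set their E-boxes beside those of Sohlh1 and Sohlh2 above. Akirin1 lies at chr4:123750250-123750549 (minus strand), Cap1 at chr4:122886027-122886326 (minus strand) and Gnb1 at chr4:155491111-155491410 (plus strand).
Akirin1: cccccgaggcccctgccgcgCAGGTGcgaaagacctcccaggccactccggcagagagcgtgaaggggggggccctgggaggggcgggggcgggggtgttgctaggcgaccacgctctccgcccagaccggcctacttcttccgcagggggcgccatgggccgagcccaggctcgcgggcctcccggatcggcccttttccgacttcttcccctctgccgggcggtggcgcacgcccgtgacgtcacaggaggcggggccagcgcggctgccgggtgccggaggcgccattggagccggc
Cap1: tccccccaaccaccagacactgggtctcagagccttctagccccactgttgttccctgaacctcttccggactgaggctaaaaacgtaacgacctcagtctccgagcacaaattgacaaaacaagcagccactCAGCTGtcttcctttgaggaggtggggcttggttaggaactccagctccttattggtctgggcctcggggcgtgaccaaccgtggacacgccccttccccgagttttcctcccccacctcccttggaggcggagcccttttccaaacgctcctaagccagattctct
Gnb1: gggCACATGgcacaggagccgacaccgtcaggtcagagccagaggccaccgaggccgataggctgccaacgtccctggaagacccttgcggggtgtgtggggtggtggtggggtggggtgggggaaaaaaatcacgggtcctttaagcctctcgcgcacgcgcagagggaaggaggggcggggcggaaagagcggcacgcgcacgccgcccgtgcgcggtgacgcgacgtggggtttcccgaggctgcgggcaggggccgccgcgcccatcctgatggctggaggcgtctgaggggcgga
Each window held 1 CANNTG, which is the median over all windows. That of Cap1 was CAGCTG, found in 16.3% of windows, and none of the 3 held a CACGTG.

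In RefSeq gene order, Akirin1, Cap1 and Gnb1 lie on chromosome 4. Akirin1 stands next to Ndufs5, a subunit of respiratory complex I, with 0 named genes between them, and 14 named genes separate it from Cap1. Gnb1 is 519 named genes from Akirin1. Ndufs5 had a difference of 0.85 with 6 arrays and did not pass (adjusted p = 0.140). The 10 named genes on each side of Sohlh1 and of Sohlh2 were read as well, since a targeted allele carries its flanking DNA with it. Each neighbour was read by its brightest probe set only. Of the 20 beside Sohlh1, 9 were tested, with differences from -0.31 to 0.20 with 6 arrays. Of the 20 beside Sohlh2, 15 were tested, with differences from -0.12 to 0.41. None of these 24 neighbours passed or had an unadjusted p under 0.05, with 8 arrays or with 6. The neighbours of Akirin1, Cap1, Eny2, Lsm12 and Gnb1, 14 or 15 tested for each, held 0 changed genes by that reading. With 6 arrays 1 beside Akirin1 and 1 beside Eny2 had an unadjusted p under 0.05. The windows of Akirin1 and Cap1 share genes. By their own brightest probe sets Eny2, Akirin1 and Gnb1 had 0.0041, -0.12 and -0.064 with 6 arrays. These counts therefore do not cover other probe sets of the neighbours.

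The knockouts were then compared on the genes that changed in the mean of both. A probe set can enter this set without passing in each knockout. Taking the mean of the knockout groups against wild type, 954 probe sets (3.83%) changed, and 159 (0.638%), of 142 genes, changed at least 2-fold, 59 higher and 100 lower than wild type. This pooled contrast does not use the difference between the knockouts. With 8 arrays 0 of the 159 differed between the knockouts. Their median absolute difference was 0.174, against 0.104 over all tested probe sets. For 126 of them (79.2%) the 95% interval lay within 2-fold, a smaller share than the 85.7% of all tested probe sets. Of the 159, 4 had groups apart, where 1.91% of all probe sets did, and 2 were past 2-fold, where 0.397% of all were. With 6 arrays the pooled set held 157 probe sets (0.630%), of which 2 differed, Sohlh1 and Sohlh2, the genes that chose the arrays. The interval lay within 2-fold for 109 (69.4%), against 81.5% of all probe sets. Of the 157, 21 had groups apart, where 12.9% of all probe sets did, and 8 were past 2-fold, where 1.12% of all were.

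Sohlh1 was 1 of the 8 deepest shared falls. Among the others, Lhx8, a LIM homeobox factor of oocytes, had 10.5, 33.8, 26.9 and 18.6 on arrays labelled Sohlh1 knockout and 1.39, 53.7, 27.2 and 23.7 on those labelled Sohlh2 knockout, against 217, 272, 279.5 and 272 in wild type. All 8 knockout arrays lay far below wild type, and the knockouts overlapped (difference 0.013, 95% interval -0.80 to 0.82). Crabp1, which binds retinoic acid in the cell, had 389, 648, 567 and 544 against 695, 630.1, 618 and 588, with 2573, 2853, 3304 and 3315 in wild type (difference 0.25, 95% interval -0.050 to 0.55). Dmrtb1, a factor of spermatogonia entering meiosis, had 125, 82.6, 137 and 106 against 181, 71.3, 162 and 181, with 659, 671, 737 and 738 in wild type (difference 0.31, 95% interval -0.20 to 0.82). The pooled change from wild type was -2.93 for Lhx8, -2.35 for Crabp1 and -2.36 for Dmrtb1, larger in size than any difference these intervals allow. Tbx1 had 0.16, the homeobox genes Dlx1 and Esx1 had 0.28 and 0.095, and Foxn4, a forkhead factor, had 0.42. With 6 arrays the differences of Lhx8, Crabp1, Dmrtb1, Tbx1, Dlx1, Esx1 and Foxn4 were 0.38, 0.22, 0.18, 0.14, 0.12, -0.073 and 0.68, and none passed.

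Rrad, a small GTPase, was among the 8 largest rises of the pooled contrast. It had 335, 355, 306 and 326 on arrays labelled Sohlh1 knockout and 327, 376, 461 and 368 on those labelled Sohlh2 knockout. Wild type had 85.4, 97.4, 127 and 134, and the difference between the knockouts was 0.20 (95% interval -0.14 to 0.53). Hdgfl1, a gene of the hepatoma-derived growth factor family, had 133, 167, 166 and 235 against 232, 281, 183 and 199, with 15.6, 97.8, 46.9 and 23.6 in wild type (difference 0.34, 95% interval -0.38 to 1.06). With 8 arrays the knockouts overlapped on both genes. With 6 arrays the groups were apart on both, as they were on 12.9% of all tested probe sets. The aldehyde oxidase Aox4 had -0.046, Dppa2, a gene of early germ cells and pluripotent cells, had 0.27, Tbx4 had 0.097, and the heavy chain gene Ighm had 0.20. Six4 had -0.12 and 0.072 at 2 probe sets. None passed with 8 or with 6 arrays.

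The 4 of the 159 with groups apart were Rspo2, Ldhc, Cldn34b2 and Mypn, named here because the count is small. Rspo2, a secreted agonist of WNT signalling, had 11.1, 12.7, 25.6 and 9.92 on arrays labelled Sohlh1 knockout and 56.0, 55.8, 54.4 and 27.3 on those labelled Sohlh2 knockout, with 112, 48.0, 98.9 and 94.3 in wild type. The difference at this probe set was 1.11 (95% interval 0.42 to 1.79) with 8 arrays and 0.96 with 6, and it did not pass in either. This probe set was 1 of the 2 past 2-fold with 8 arrays, the other being that of Sohlh1. The brightest probe set of Rspo2 had 0.055 with 8 arrays and 0.098 with 6, so the gene's probe sets disagreed. Ldhc, the lactate dehydrogenase of the testis, had 0.54 at the probe set with groups apart and 0.14 at another. Mypn, a protein of the sarcomere, had 0.35, and the claudin gene Cldn34b2 -0.44.

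**Figure D3:**
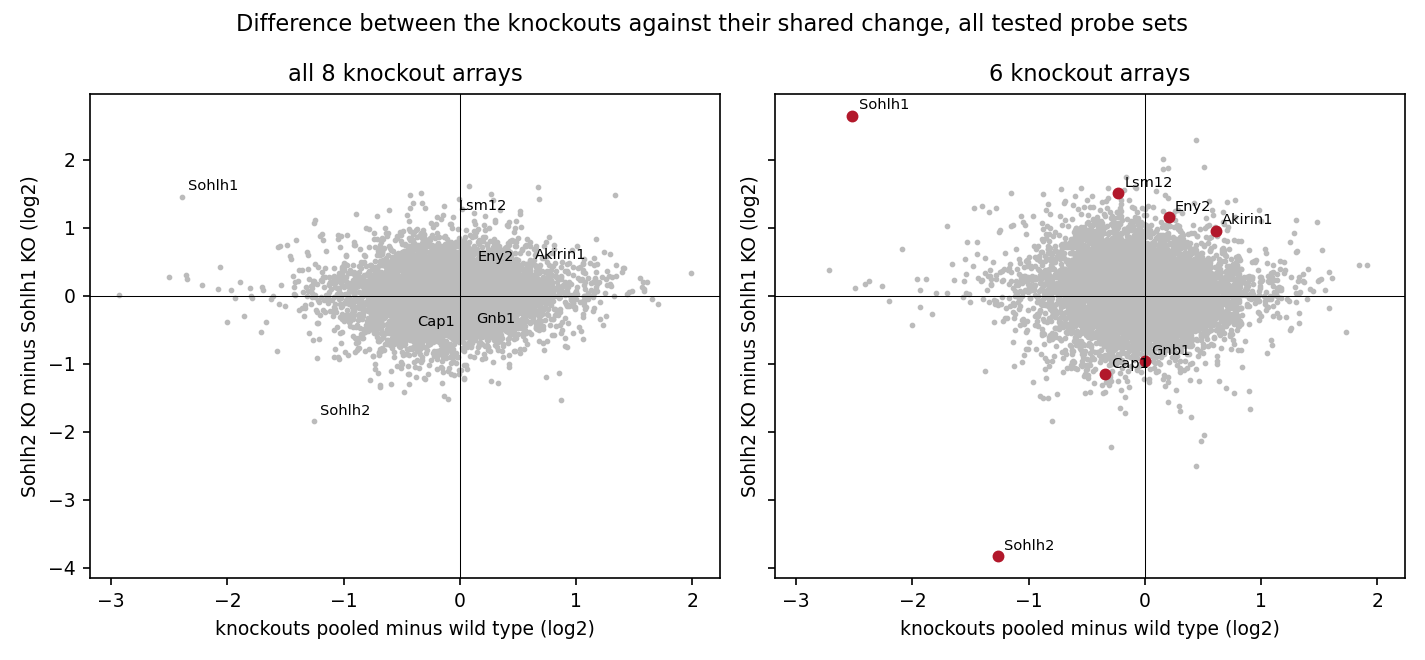
Each point is 1 of the 24906 tested probe sets, with the log2 change of the knockouts pooled against wild type on the x axis and the log2 difference Sohlh2 knockout minus Sohlh1 knockout on the y axis, for 8 knockout arrays (left) and 6 (right). Red points passed the adjusted p of 0.05 between the knockouts, which none did on the left and 7 did on the right, where Sohlh1 and Sohlh2 lie apart from the rest.

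Gene lists of germ cells were read by their counts and medians beside the same over all genes, each gene represented by its brightest probe set. Over all 13696 genes the median difference was -0.0026 with 8 arrays and -0.0075 with 6, 6741 and 6596 had higher estimates in the Sohlh2 knockout, and 338 and 807 genes had an unadjusted p under 0.05. Of 14 tested genes that earlier work places downstream of SOHLH1 or SOHLH2, 0 passed, 12 had higher estimates in the Sohlh2 knockout with 8 and with 6 arrays, and the medians were 0.12 and 0.18. Kit, the receptor of differentiating spermatogonia, had 447, 542, 329.5 and 494 on arrays labelled Sohlh1 knockout and 382, 524, 372 and 491 on those labelled Sohlh2 knockout, with 1591, 1598, 1953 and 1815 in wild type. The knockouts overlapped, with a difference of -0.027 (95% interval -0.36 to 0.31) and 0.085 with 6 arrays. Stra8, which starts meiosis in answer to retinoic acid, had 0.074 (95% interval -0.22 to 0.36). Sox3, a factor of early spermatogonia, had 0.11.

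Within that list the smallest p with 6 arrays belonged to Nobox, a homeobox factor of oocytes, with 6.32, 59.8, 6.78 and 40.05 on arrays labelled Sohlh1 knockout and 13.1, 74.1, 54.8 and 66.3 on those labelled Sohlh2 knockout, against 89.2, 109, 166 and 116 in wild type. Its groups overlapped, with a difference of 0.74 (95% interval -0.25 to 1.73) with 8 arrays and 1.32 (adjusted p = 0.706) with 6. Pou5f1, the pluripotency factor OCT4, had 461, 664, 495 and 602 against 581, 1014, 762 and 557, with 271, 269.8, 302 and 234 in wild type (difference 0.36, and 0.49 with 6 arrays). Neurog3, a factor of early spermatogonia, had 142, 111, 142 and 195 against 165, 176, 152 and 189 and 303, 352, 375 and 372 in wild type (difference 0.21, and 0.35 with 6 arrays). Both knockouts lay on the same side of wild type for all 3 genes, and no difference between them passed.

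Of 23 tested genes of undifferentiated spermatogonia 0 passed, with medians of 0.040 with 8 arrays and 0.17 with 6. With 6 arrays 6 of 23 had groups apart, a larger share than the 1732 of all 13696 genes. Sertoli cell genes had 4 of 22 apart, and basic helix-loop-helix partners and inhibitors 4 of 21. No set test was run on these counts. Ret, the signalling partner of the GDNF receptor Gfra1, had 177, 330.4, 319 and 526 on arrays labelled Sohlh1 knockout and 232, 579.8, 440.4 and 482 on those labelled Sohlh2 knockout, with 282, 275, 239 and 178 in wild type. The array labelled Sohlh1 knockout 5 was high among its label and that labelled Sohlh2 knockout 1 was low among its own. The difference of Ret was 0.37 (95% interval -0.27 to 1.01) with 8 arrays and 0.87 (95% interval 0.38 to 1.36, adjusted p = 0.536) with 6. Lin28a, an RNA-binding protein of early germ cells, had 0.22 with 8 arrays and 0.45 with 6 (adjusted p = 0.621). Upp1, a uridine phosphorylase, had 0.25 and 0.37. Gfra1 itself had 0.040 and 0.12, Id4 -0.007 and 0.11, and Zbtb16 -0.046 and 0.10, each overlapping between the knockouts.

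The list of differentiating spermatogonia held 19 tested genes, Sohlh1 and Sohlh2 among them, and had medians of 0.089 and -0.017. No other member passed. Tex101, a germ cell surface protein, had 0.37 and 0.43. Ccnd2, cyclin D2, had 6339, 6320.4, 6806 and 6382 on arrays labelled Sohlh1 knockout and 7973, 7844, 7832 and 6492 on those labelled Sohlh2 knockout (difference 0.22, and 0.18 with 6 arrays). Of 20 genes of pluripotency and early germ cells, 15 had higher estimates in the Sohlh2 knockout with 8 arrays and 17 with 6 (medians 0.15 and 0.17), and 0 passed. Sox2, a pluripotency factor, had 0.83 and 1.11, with dim signals of 7.26, 50.6, 30.8 and 26.8 against 26.7, 96.8, 61.5 and 61.4. Of 10 oocyte genes 0 passed (medians 0.10 and 0.13).

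Of 24 meiosis genes 0 passed and 20 had higher estimates in the Sohlh2 knockout with 8 arrays and 18 with 6 (medians 0.097 and 0.077). Syce1, of the synaptonemal complex, had 0.15 and 0.15. Of 25 cell cycle genes 0 passed and 23 had higher estimates with 8 arrays and 17 with 6 (medians 0.081 and 0.066). Ccnd1, cyclin D1, had 731, 736, 826 and 952 on arrays labelled Sohlh1 knockout and 793, 968, 936 and 991 on those labelled Sohlh2 knockout, with 1529, 1607, 1591 and 1482 in wild type. Both knockouts lay below wild type, with a difference of 0.19 and of 0.33 with 6 arrays (adjusted p = 0.629), where the knockout groups did not overlap. For piRNA pathway genes (17 tested) the medians were 0.051 and 0.10, for germ cell genes of any stage (18) 0.045 and 0.064, with sums of 43498 to 50506 on arrays labelled Sohlh1 knockout and 44748 to 50636 on those labelled Sohlh2 knockout, and for the MAGE family (9) 0.00064 and -0.034.

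Proteins of the basic helix-loop-helix class pair with one another and are held back by the ID proteins, which lack the part that binds DNA. Of 21 such partners and inhibitors 0 passed, and 16 had lower estimates in the Sohlh2 knockout with 8 arrays and 15 with 6 (medians -0.076 and -0.055). Id3 had 2712, 2468, 2593 and 1682 on arrays labelled Sohlh1 knockout and 2784, 1804, 2165 and 1826 on those labelled Sohlh2 knockout, with 2764, 2054, 1393 and 1687 in wild type (difference -0.14, and -0.42 with 6 arrays). Id2 had -0.21 and -0.33. Wild type overlapped both knockouts for both genes. The summed signal of the list was 35262 to 37648 on arrays labelled Sohlh1 knockout, 34446 to 34932 on those labelled Sohlh2 knockout and 32188 to 36525 in wild type, with the knockouts apart in the sum for this list and overlapping for the other lists. The retinoic acid pathway (15 tested) had medians of -0.0046 and -0.046, and GDNF-regulated genes (15) 0.013 and 0.12. The other lists of processes held 0 changed genes and are in the plot of list medians.

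Lists of the other cells of the testis were read the same way, and no member passed. Of 22 Sertoli cell genes 4 had higher estimates in the Sohlh2 knockout with 8 arrays and 6 with 6 (medians -0.078 and -0.11). Gata1, a factor of Sertoli cells, had 1105, 1123, 1252 and 623 on arrays labelled Sohlh1 knockout and 1089, 534, 791 and 909 on those labelled Sohlh2 knockout (difference -0.30, and -0.66 with 6 arrays, adjusted p = 0.571). The summed signal of the list was 207089 to 232985 on arrays labelled Sohlh1 knockout and 190505 to 220630 on those labelled Sohlh2 knockout, so the groups overlapped. Of 13 Leydig cell genes 0 passed (medians -0.090 and -0.12), with sums of 34325 to 40963 and 34894 to 39184. Cyp11a1, which begins steroid synthesis, had 2254, 2261, 2257 and 1794 against 2878, 1539.5, 1685 and 1893 (difference -0.14, and -0.41 with 6 arrays).

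Peritubular myoid cells (12 tested) had medians of 0.027 and 0.059, endothelial cells (15) -0.075 and -0.070, leukocytes (14) 0.13 and 0.087, and mast cells (8) 0.23 and 0.061. Adipose tissue (6 tested of 13) had -0.11 and -0.30, and its summed signal ran from 4915 to 9154 on arrays labelled Sohlh1 knockout and from 6012 to 8379 on those labelled Sohlh2 knockout. Erythroid cells (5 tested), epididymis and rete testis (9) and skeletal muscle (9) had medians of -0.14, 0.094 and 0.14 with 8 arrays and -0.082, 0.034 and -0.067 with 6. The part of these cells in any difference between the knockouts was not tested.

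**Figure D4:**
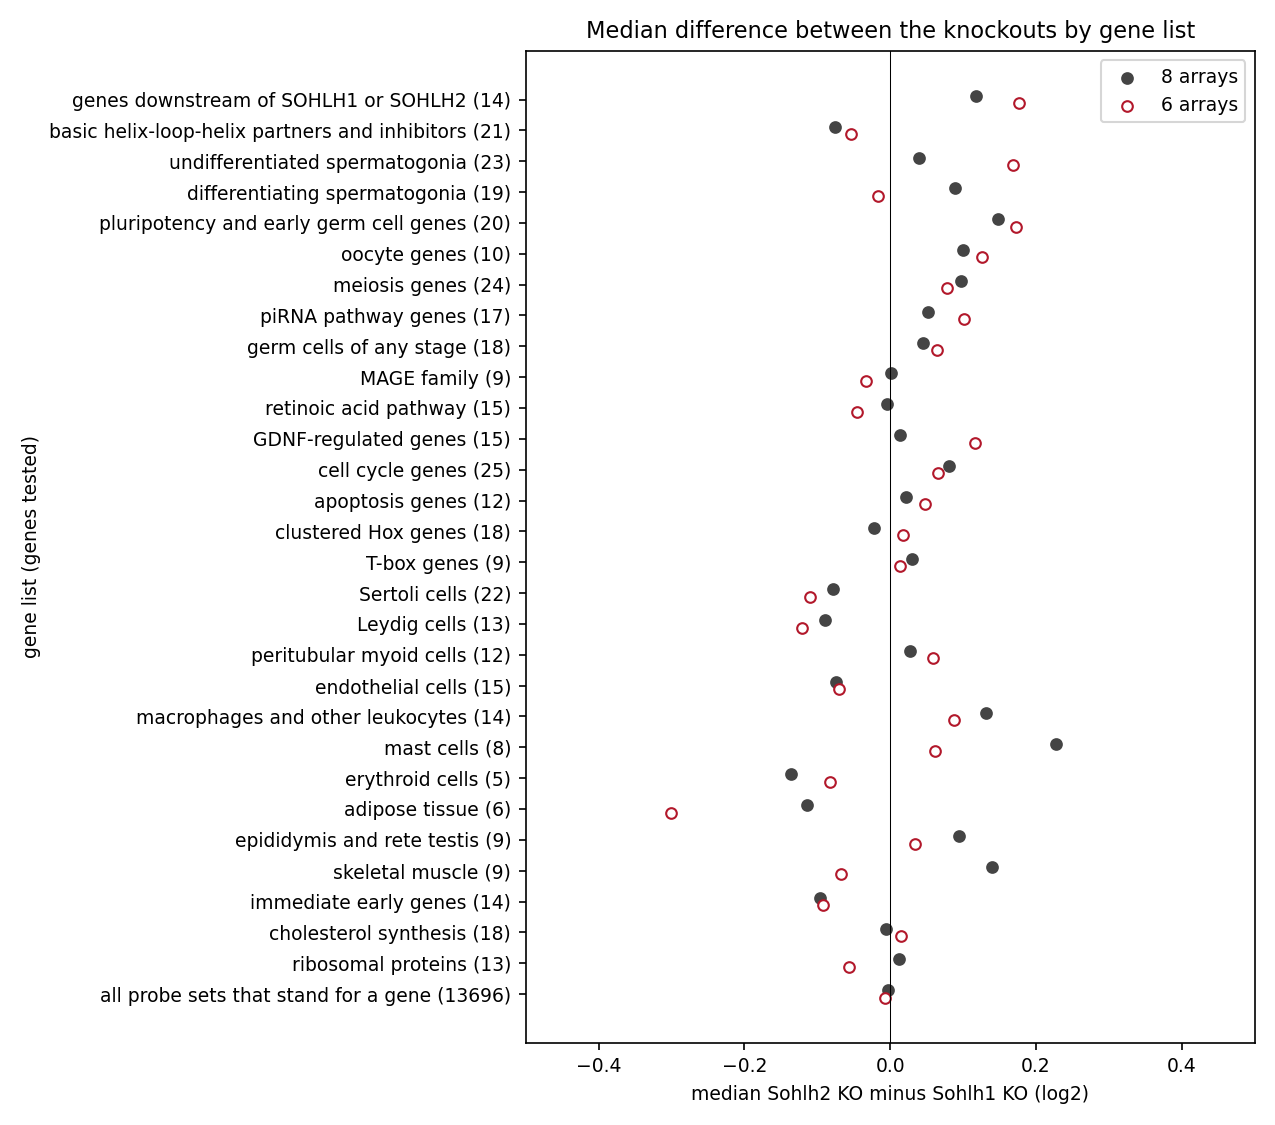
Median log2 difference Sohlh2 knockout minus Sohlh1 knockout for each gene list with 8 arrays (filled) and 6 arrays (open), with the number of genes tested in brackets and all 13696 genes in the last row. The medians run from -0.30 (adipose tissue, 6 arrays) to 0.23 (mast cells, 8 arrays).

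The distance between 2 arrays was taken as the median absolute log2 difference over all tested probe sets, given as a description. The 16 pairs of 1 array of each knockout had a median distance of 0.208 (0.166 to 0.333), the 6 pairs within the Sohlh1 knockout 0.236 (0.175 to 0.286) and the 6 within the Sohlh2 knockout 0.262 (0.156 to 0.345). The median across the knockouts was thus below both medians within them. Without the arrays labelled Sohlh1 knockout 5 and Sohlh2 knockout 1 it was 0.195 across, 0.283 within the Sohlh1 knockout and 0.187 within the Sohlh2 knockout. From wild type the median distance was 0.268 to the Sohlh1 knockout and 0.242 to the Sohlh2 knockout. The arrays labelled Sohlh1 knockout 2 and Sohlh2 knockout 1, those of high 3′ to 5′ ratio, were nearest to each other, at 0.259. Without them the medians were 0.187 across the knockouts, 0.201 and 0.187 within the Sohlh1 and the Sohlh2 knockout, and 0.239 and 0.227 to wild type.

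**Figure D5:**
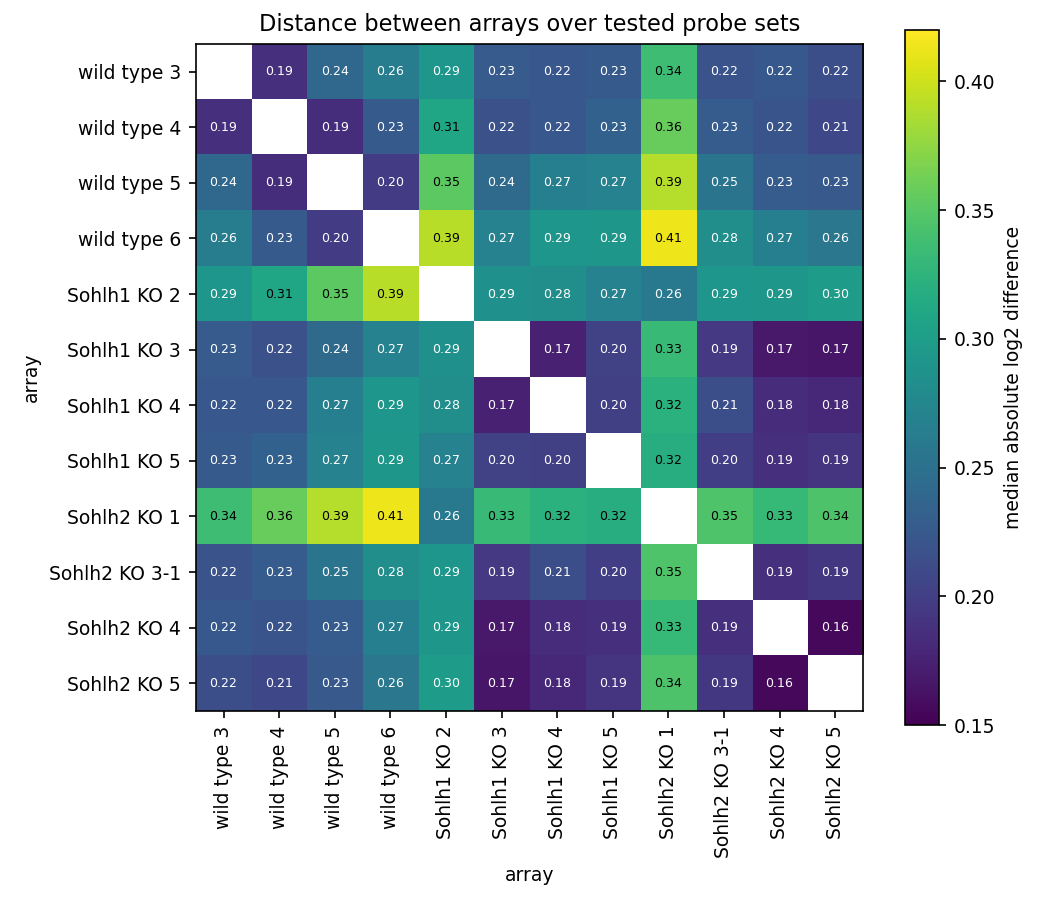
Median absolute log2 difference over the 24906 tested probe sets for each pair of the 12 arrays, as colour and number. The arrays labelled Sohlh1 knockout 2 and Sohlh2 knockout 1 are far from all others, and among the remaining 6 knockout arrays pairs within and across the labels have like values.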

How the data were processed

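Whole-testis RNA of 12 arrays in 3 groups of 4 was compared. The deposited values are linear signal intensity per probe set, which per the submitters' processing notes the authors obtained with GCOS and MAS5, without version or settings. Every array has 1 common mean once 2% of values is trimmed at each end. The labels' protocols name an oligo(dT) primer, which favours the 3′ ends of transcripts. No detection calls were used here.

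Intensity was turned to log2(value + 14.2), the 20th percentile of non-control values, without further normalization. Tested were 24906 probe sets, those with exactly 1 gene symbol in the platform's annotation and a signal over 48.6, the 40th percentile, in 4 or more of the 12 arrays. Left out were 64 control probe sets and 932 with several and 9160 with no symbol. Differences were tested two-sided with moderated linear models (limma 3.58.1, R 4.3.3, eBayes with trend), genotype as the only term, all 12 arrays in 1 fit, or 10 without the arrays labelled Sohlh1 knockout 5 and Sohlh2 knockout 1. Benjamini-Hochberg adjustment ran over all tested probe sets, with 0.05 as the threshold for any verb of change. Each pool of 3 testes counts as 1 replicate, and the p-values rest on the spread among such pools.

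Named are Sohlh1 and Sohlh2. In each fit up to 10 changed probe sets a direction with groups apart were named, filled up to 5 by smallest p. Also named are 3 members of each of 29 lists by smallest p. The 8 largest falls and rises of the knockouts pooled against wild type are named too. Other names, such as Stra8, Sox3, Gfra1, Id4, Zbtb16, Rspo2, Ndufs5, Dazl and Sox9, were picked with their values in view. The members and lists were chosen with earlier results of these data known. Symbols were checked against RefSeq (GRCm38.p6), where 34741 of 34945 matched and 0 differed. That table also gave gene order and promoter windows. The steps were tested on simulated data. Alternatives were other offsets, normalizations, filters, probe set choices, weights, blocks, covariates, thresholds and samples. Figures were drawn with matplotlib 3.10.9.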

Additional observations from a re-analysis of the deposited data

Results flagged for a closer look

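In groups of 4 arrays a value was marked where the gap between the highest or lowest array and the nearest other took up more of the group's range than Dixon's 95% critical value for 4 samples. Among 228 groups of the named genes 18 were marked. Chance marks about 1 in 20 groups, but this rate is no yardstick here: the signals of Sohlh1 and Sohlh2 are those by which the arrays labelled Sohlh1 knockout 5 and Sohlh2 knockout 1 were doubted, Eny2, Zfp386 and Cap1 were named by p with these 2 arrays left out, and list members were named by p. The marks are given as a description. The array labelled Sohlh1 knockout 5 stood apart from the other 3 of its label in Sohlh2 with 94.4 against 1556 to 1783 (gap 0.952 of the range), in Zfp386 with 934 against 376 to 407 (gap 0.916 of the range), in Cap1 with 2072 against 5428 to 6508 (gap 0.841 of the range), and in Cyp11a1 with 1794 against 2254 to 2261 (gap 0.986 of the range). The array labelled Sohlh2 knockout 1 stood apart in Sohlh1 with 126 against 465 to 563 (gap 0.868 of the range), in Eny2 with 172 against 628 to 722 (gap 0.900 of the range), in Zfp386 with 323 against 799.5 to 927 (gap 0.858 of the range), and in the germ cell gene Usp26 with 84.8 against 387 to 426 (gap 0.937 of the range).

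The array labelled Sohlh1 knockout 2 stood apart in Dlx1 with 18.4 against 2.02 to 2.26 (gap 0.978 of the range), in Tbx4 with 14.8 against 65.4 to 76.0 (gap 0.890 of the range), in the water channel gene Aqp1 with 38.5 against 127 to 155 (gap 0.844 of the range), and in the muscle gene Actn3 with 299 against 408 to 429.7 (gap 0.852 of the range). The array labelled Sohlh1 knockout 4 stood apart in Ccnd2 with 6806 against 6320.4 to 6382 (gap 0.869 of the range). The array labelled Sohlh2 knockout 3-1 stood apart in Dmrtb1 with 71.3 against 162 to 181 (gap 0.876 of the range) and in Tbx22 with 151 against 378 to 415 (gap 0.905 of the range). The array labelled Sohlh2 knockout 5 stood apart in Ccnd2 with 6492 against 7832 to 7973 (gap 0.914 of the range), in Mga with 1019 against 824 to 849 (gap 0.863 of the range), and in the macrophage gene Mrc1 with 574 against 497 to 508 (gap 0.840 of the range).

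Outside the comparison, 3788 probe sets without exactly 1 gene symbol passed the filter on signal. With 8 arrays 0 of them changed by limma adjusted p (127 had an unadjusted p under 0.05), and with 6 arrays 2 did, both higher on the arrays labelled Sohlh2 knockout. Probe set 1428301_at had 434, 418 and 446 under Sohlh1 knockout 2, 3 and 4 and 2394, 1534 and 1545 under Sohlh2 knockout 3-1, 4 and 5, a difference of 2.01 (adjusted p = 0.0104). Probe set 1452731_x_at had 316, 228 and 252 against 1028, 859 and 929, a difference of 1.78 (adjusted p = 0.0104). On the left-out arrays labelled Sohlh1 knockout 5 and Sohlh2 knockout 1 the first had 1935 and 434 and the second 1022 and 219.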

How the results depend on the processing

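With 8 arrays as labelled, 0 probe sets changed under every alternative that kept both arrays of contrary targeted genes, left out the 2 arrays of high 3′ to 5′ ratio or left out 1 array (0 to 0). The count was 9 without the arrays labelled Sohlh1 knockout 2, Sohlh1 knockout 5 and Sohlh2 knockout 1. Of the probe sets 2-fold changed in the knockouts pooled, the count that also differed between the knockouts was 0 with 8 arrays and 0 to 0 with 1 array left out, 2 without the 2 arrays of contrary targeted genes, and 2 without the 3 arrays. With 6 arrays it was 2, and 2 to 3 with 1 array left out.

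With 6 arrays the count of 7 became 4 with 1 probe set per gene, 3 with eBayes without trend, 11 with array weights, 3 at an adjusted p under 0.01 and 5 at 2-fold as well, and ran from 3 (without the array labelled Sohlh2 knockout 5) to 9 with 1 array left out. Offset, filter, quantile normalization and median centring left it at 7. Same-numbered knockout arrays had correlations of their deviations of 0.0758 to 0.0956. Arrays of unlike number were not set beside them, so these values cannot settle whether the numbers pair arrays. The main fits did not pair them. With the replicate block the count was 0 with 8 arrays, and with 6 arrays 4 with 3-1 as its own number and 10 with 3-1 as 3. Under the first of these blocks none of Eny2, Akirin1, Lsm12, Cap1 and Gnb1 passed, and under the second Eny2, Cap1 and Gnb1 did. Efhd2 and C1qtnf12, which did not pass in the main fit, passed under both blocks and without the array labelled Sohlh1 knockout 2. Eny2 passed 23 of 24 alternatives (adjusted p up to 0.190), Gnb1 18 of 24, Cap1 16 of 25, Akirin1 15 of 23 and Lsm12 14 of 24. Zfp386 passed 6 of 25 and Glo1 3 of 24. The causes were not tested.

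The genes that passed with 6 arrays kept their sign under the alternatives run. Among list medians, that of differentiating spermatogonia ran from -0.057 to 0.14 with 8 arrays and that of oocyte genes from -0.088 to 0.22 with 6, so their signs depend on the setting, while downstream, pluripotency, Sertoli and Leydig medians kept their sign. Median centring moved the distance across the knockouts from 0.208 to 0.210. The number of arrays limits the precision, and signals below 48.6 carry little.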
